A study of Mus musculus with 36 samples.

Results

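A set of 9 genes of kidney ammonia production and proximal acid handling, out of 53715 genes counted, was followed through 36 whole-kidney RNA-seq libraries. They were picked for their roles, with earlier results of these data known, and matched by symbol: Glud1, Glul, Slc38a3, Slc7a7, Slc1a1, Slc9a3, Slc4a4, Car4 and Rhbg. Each symbol matched 1 Ensembl gene on GRCm38, and all 9 were among the 15637 genes that passed the filter on low counts. The libraries formed 4 groups of 9. The knockout mice (cKOt) were Bmal1 lox/lox animals that also carried Pax8-rtTA and LC1, in which the Pax8 promoter makes the renal tubule respond to doxycycline and LC1 supplies the Cre recombinase. The controls were Bmal1 lox/lox littermates. All animals, controls included, drank doxycycline at 2 mg/ml for 2 weeks from an age of 8 weeks. One week later they received either streptozotocin (STZ), a beta-cell toxin that causes type 1 diabetes, at 50 mg/kg on each of 5 days, or the vehicle PBS. Kidneys were collected 8 weeks after the final injection, at zeitgeber time 9 (hours after lights on). Group names join the injection and the genotype, as in PBS-control and STZ-cKOt.

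The kidney disposes of acid partly by making ammonium from glutamine. Proximal tubule cells take up glutamine and turn it into glutamate, from which glutamate dehydrogenase (Glud1) releases ammonia, and the remaining carbon can then pass through PEP carboxykinase (Pck1) to glucose. Glutamine synthetase (Glul) runs the other way and binds ammonia to glutamate. The same cells secrete protons into the lumen and return bicarbonate to the blood, and ammonium is finally moved into the urine by Rh glycoproteins of the distal nephron. Acid loading is known to raise Glud1, Pck1 and Slc38a3 and to lower Glul in the kidney. These are not all the genes that it changes, and its part in the values below was not tested.

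Of the 9 genes, Glul and Slc9a3 were lower in every PBS-cKOt library than in every PBS-control library. Of all genes tested, 12.5% were called lower in this comparison. How many of them had groups without overlap was not counted, so the separation does not set Glul and Slc9a3 apart. The deleted factor BMAL1 binds E-box DNA elements and controls the REV-ERB repressors. The 250 bases upstream of the RefSeq start sites of Glul and Slc9a3 (GRCm38.p6) are therefore shown first. Capitals mark matches on either strand to the E-box CACGTG or to the half-site AGGTCA bound by ROR and REV-ERB receptors. The Glul window lies at chr1:153899679-153899928 and the Slc9a3 window at chr13:74121163-74121412, both on the plus strand.
Glul: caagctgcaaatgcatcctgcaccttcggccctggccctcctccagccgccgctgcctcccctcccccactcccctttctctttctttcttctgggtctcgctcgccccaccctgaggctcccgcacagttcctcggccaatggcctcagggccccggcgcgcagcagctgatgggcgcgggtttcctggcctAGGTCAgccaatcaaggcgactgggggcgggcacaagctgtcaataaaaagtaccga
Slc9a3: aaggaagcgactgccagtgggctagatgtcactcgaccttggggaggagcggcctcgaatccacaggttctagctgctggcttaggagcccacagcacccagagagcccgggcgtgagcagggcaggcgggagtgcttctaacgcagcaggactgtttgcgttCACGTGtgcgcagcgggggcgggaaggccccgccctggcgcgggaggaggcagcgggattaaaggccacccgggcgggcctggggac
The Slc9a3 window held 1 E-box, which began 87 bases before the start site, and the Glul window held 1 half-site, 57 bases before it. RefSeq gave 12 windows for 7 of the 9 genes, several of them alternative starts of Slc7a7 and Slc4a4. CACGTG was found in 1 of the 12 windows (Slc9a3) and in 6.02% of 32851 windows of the same length. AGGTCA was found in 3 of the 12 windows (Glul, 1 start of Slc7a7 and 1 start of Slc4a4) and in 14% of all windows. The strings TTATGTAA and TTACGTAA (the D-box of the PAR-bZIP factors) were found in 0 of the 12 windows and in 0.931% of all windows. All strings were searched on both strands, and a match is one of letters, not a measured binding site.

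Each library held 16.9 M to 22.3 M (mega) reads counted in genes. Levels are CPM (a gene's reads for each M reads of the TMM-scaled library), given as mean ± SD over the 9 libraries of a group, and fold changes are from edgeR's quasi-likelihood fit to all 36 libraries with Benjamini-Hochberg adjustment over all 15637 genes and a threshold of 0.05. The targeted gene Arntl (Bmal1) was counted at 1.09 to 2.4 CPM in PBS-control libraries and 12.9 to 17.4 CPM in the 18 cKOt libraries. The count of the targeted gene was thus higher in the knockout (log2 fold change 3.00 ± 0.29 in PBS mice, adjusted p = 1.22e-10). It covers the whole gene, also outside the deleted part, and does not measure the loss. Where its reads lie in the gene was not examined, and the cause of the rise was not tested. Ciart, a clock gene driven by BMAL1, was at 12.9 to 23.3 CPM in PBS-control and 1.1 to 3.48 in PBS-cKOt. In the library labelled STZ-control 2, Arntl stood at 13.4 CPM and Ciart at 1.95, where the other 8 STZ-control libraries had 1.18 to 2.64 and 18.2 to 32.5, so it goes against its label. Another 4 libraries (STZ-control 7 and 8, PBS-cKOt 1 and 3) stood apart on the second principal component. All 5 were kept. Calls of the 9 genes that change without them are given with both values, and for other genes only some such changes are given. Defining markers of the proximal tubule were abundant: 5 markers of all its segments (Lrp2, Cubn, Hnf4a, Slc34a1, Miox) summed to between 6470 and 10600 CPM in any library. The 6 intercalated cell markers summed to between 268 and 423 CPM.

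**Figure D1:**
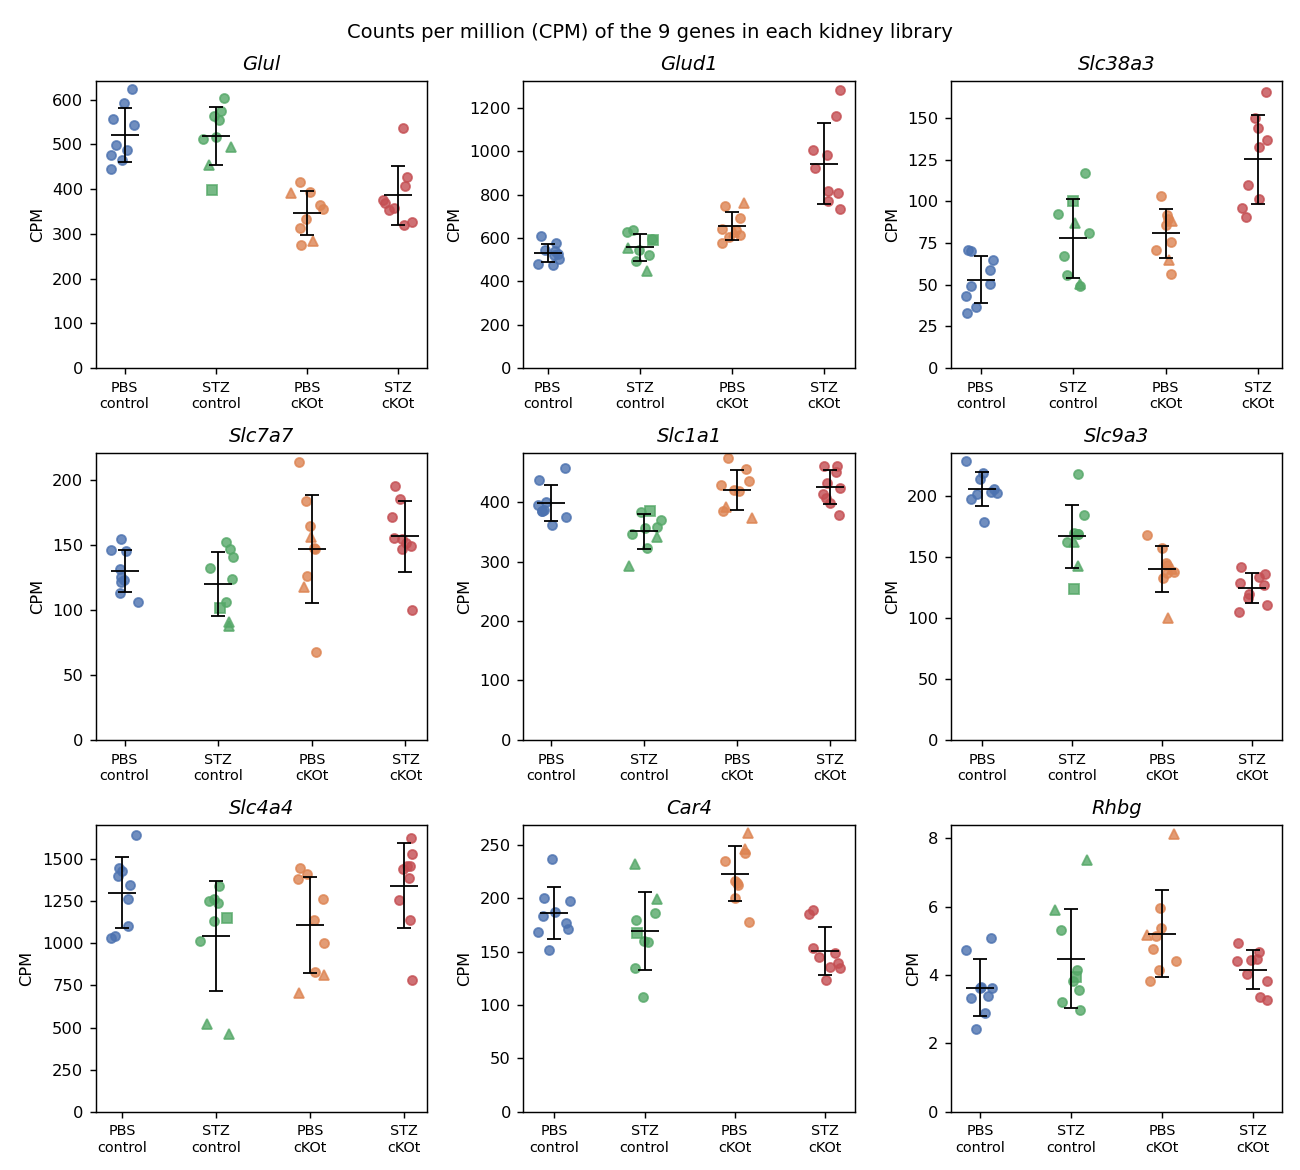
CPM of each gene (y axis, from 0) in every library, by group (x axis). Points are libraries, bars are the mean ± SD of 9, triangles are the 4 libraries apart on the second principal component and the square is the library labelled STZ-control 2. Glul and Slc9a3 are lower in both cKOt groups, and Glud1 is highest in STZ-cKOt, at 735 to 1280 CPM.

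Without diabetes, deleting Bmal1 in the tubule was accompanied by less Glul and Slc9a3 and more Glud1, Slc38a3 and Rhbg. Of the 9 genes 5 passed the test between PBS-cKOt and PBS-control, against 23.4% of all genes tested, with 3 higher (10.9% of all genes were called higher) and 2 lower (12.5% of all genes). Their median log2 fold change was 0.18 and their median absolute value 0.31, where all tested genes had 0.002 and 0.146. In diabetic mice 6 of the 9 differed between STZ-cKOt and STZ-control, against 19.6% of all genes. Higher were 4 (Glud1, Slc38a3, Slc7a7, Slc1a1; 9.52% of all genes) and 2 lower (Glul, Slc9a3; 10.1%), with a median of 0.28 and a median absolute value of 0.38 (all genes −0.008 and 0.131). Without the library labelled STZ-control 2, or without the 4 libraries apart, the count was 5, because Slc7a7 was no longer called. The genes were picked with earlier results of these data known, so these shares describe them and do not test the pathway. In whole kidney, fewer cells of a type and less RNA per cell cannot be told apart.

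Glul encodes glutamine synthetase, which consumes ammonia (ENSMUSG00000026473, chromosome 1, 153899944 to 153909723). It was counted at 444 to 624 CPM in PBS-control (median 499) and at 276 to 416 in PBS-cKOt (median 356). The groups did not overlap. The mean fell from 521 ± 61.3 to 347 ± 49.3 CPM, a log2 fold change of −0.58 ± 0.09 (± SE, adjusted p = 4.36e-06), and 9 of 9 cKOt libraries lay below the control median. In STZ mice the control libraries ran from 399 to 603 CPM (median 517) and the cKOt libraries from 321 to 537 (median 369). These groups overlapped: the library labelled STZ-control 2 gave the lowest control value and STZ-cKOt 9 the highest knockout value, where the next had 427. The difference was −0.43 ± 0.09 (adjusted p = 0.000542), with 8 of 9 cKOt libraries below the control median. STZ itself left no detectable change, with −0.01 in control mice (95% interval −0.19 to 0.18) and 0.15 in cKOt mice (−0.03 to 0.34).

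Glud1 encodes mitochondrial glutamate dehydrogenase, which frees ammonia from glutamate (ENSMUSG00000021794, chromosome 14, 34310727 to 34345265). Its CPM ran from 475 to 611 in PBS-control (median 527) and 576 to 763 in PBS-cKOt (median 638). With STZ it ran from 448 to 639 in controls (median 554) and 735 to 1280 in cKOt mice (median 922). The 9 STZ-cKOt libraries all lay above the 9 STZ-control libraries, while the 2 PBS groups overlapped. The knockout difference was 0.31 ± 0.09 in PBS mice (adjusted p = 0.00734) and 0.76 ± 0.09 in STZ mice (adjusted p = 7.31e-09). STZ raised Glud1 by 0.52 ± 0.09 in cKOt mice (656 ± 64.5 to 943 ± 186 CPM, adjusted p = 4.81e-05). In control mice the difference was 0.07 (interval −0.10 to 0.24, adjusted p = 0.63). The difference between these STZ effects was 0.45 ± 0.12 (unadjusted p = 0.000575), but it did not pass the test over all genes (adjusted p = 0.204), so the STZ effect is not shown to depend on genotype.

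The ratio of Glud1 to Glul reads within a library, per kilobase of exon, is free of the scaling between libraries. It ran from 0.687 to 1.08 in PBS-control (median 0.783) and from 0.707 to 1.17 in STZ-control (median 0.836), and from 1.21 to 2.12 in PBS-cKOt (median 1.39) and 1.7 to 2.56 in STZ-cKOt (median 1.82). Every cKOt library was thus above 1, and 1 library of each control group was. The STZ-control library above 1 was the one labelled STZ-control 2. The ratio was formed after the values of both genes were seen and is given with no test.

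**Figure D2:**
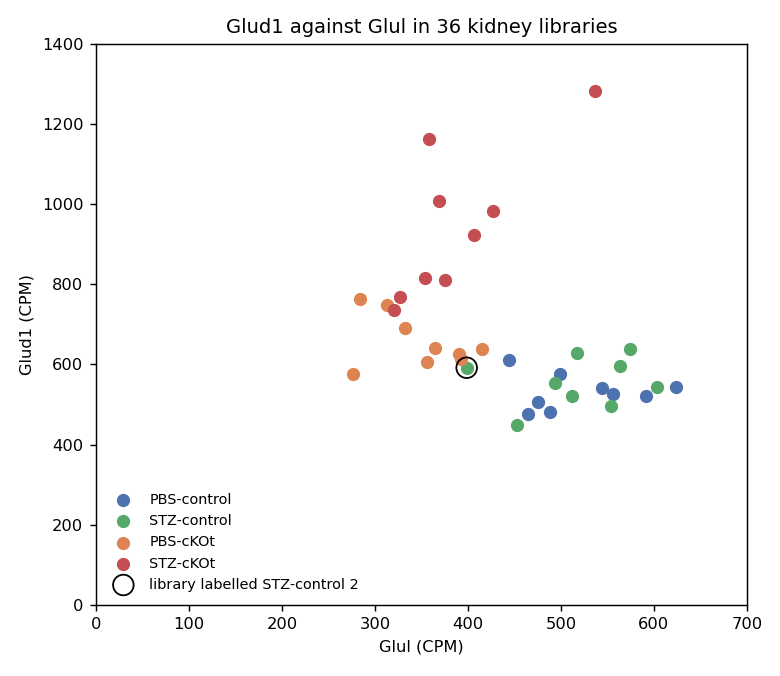
Glud1 (y axis, CPM) against Glul (x axis, CPM), one point per library, coloured by group, with the library labelled STZ-control 2 circled. Control libraries lie at the lower right, PBS-cKOt libraries further left, and STZ-cKOt libraries highest. The circled library, at 399 CPM of Glul and 592 of Glud1, lies among the PBS-cKOt points.

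Pck1, the enzyme gene downstream of Glud1, was also read. It gave 0.07 in PBS mice (interval −0.21 to 0.35, adjusted p = 0.745) and rose by 0.43 ± 0.14 in STZ mice (1810 ± 284 to 2440 ± 505 CPM, adjusted p = 0.0241). The difference between the genotypes' STZ effects on Pck1 was not called (0.36, adjusted p = 0.431).

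Slc38a3 encodes SNAT3, the basolateral carrier that brings glutamine into proximal cells (ENSMUSG00000010064, chromosome 9, 107650634 to 107669530). It was the only one of the 9 genes called in all 4 pairwise comparisons, each time in the same direction. Its CPM ran from 33.3 to 70.7 in PBS-control (median 50.3) and 56.6 to 103 in PBS-cKOt (median 85.5). With STZ it ran from 49.4 to 117 in controls (median 80.8) and 90.3 to 165 in cKOt mice (median 132). Neighbouring groups overlapped, but all STZ-cKOt libraries lay above all PBS-control libraries. The knockout differences were 0.61 ± 0.16 in PBS mice (adjusted p = 0.00439) and 0.69 ± 0.16 in STZ mice (adjusted p = 0.0014). The STZ differences were 0.55 ± 0.16 in control mice (adjusted p = 0.0187) and 0.63 ± 0.16 in cKOt mice (adjusted p = 0.00655). The interaction was 0.08 (interval −0.38 to 0.53), an interval that leaves room for unequal STZ effects. At 18.2% to 30.5% of the mean, the SD of Slc38a3 within groups was among the wider ones of the 9 genes.

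Slc7a7 encodes y+LAT1, which exchanges cationic for neutral amino acids at the basolateral membrane (ENSMUSG00000000958, chromosome 14, 54369442 to 54417780). PBS-cKOt libraries ran from 67.6 to 213 CPM, on both sides of the PBS-control range of 106 to 154, and the difference of 0.18 was not called (adjusted p = 0.369). In STZ mice it was higher in cKOt by 0.38 ± 0.14 (156 ± 27.2 against 120 ± 24.4 CPM, adjusted p = 0.047). That call was lost without the library labelled STZ-control 2 (0.35, adjusted p = 0.0819) and without the 4 libraries apart (0.29, adjusted p = 0.165), as well as with DESeq2's size factors (0.0501), without a filter on low counts (0.0593) and with the replicate block (0.0516). The lowest STZ-control values, 87.8 and 90.5 CPM, belonged to STZ-control 7 and 8.

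Slc1a1 encodes EAAC1, the apical carrier that reclaims glutamate from the lumen (ENSMUSG00000024935, chromosome 19, 28835049 to 28913960). It varied little between libraries, with an SD of 6.75% to 8.39% of the mean. STZ-control had 293 to 385 CPM (median 356) and STZ-cKOt 378 to 460 (median 424). The groups overlapped through 2 control libraries, at 385 (the library labelled STZ-control 2) and 383 CPM, which exceeded the lowest cKOt value. Slc1a1 was higher in cKOt by 0.28 ± 0.06 in STZ mice (adjusted p = 0.000239). In PBS mice it was 398 ± 30.3 and 420 ± 32.8 CPM, with no call by edgeR (0.08, adjusted p = 0.328), though limma voom called it (0.12, adjusted p = 0.0444). STZ lowered it by 0.18 in control mice (−0.18 ± 0.06, adjusted p = 0.0246), a call that was lost in 4 of 10 alternatives: without the 4 libraries apart (−0.13, adjusted p = 0.103), with limma voom (0.0653), with only these groups in the edgeR fit (0.0568) and without a filter on low counts (0.0973). Of its exon bases 31.9% lie under exons of genes on the opposite strand. The strand setting of the counting was not given in the sources used here.

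Slc9a3 encodes NHE3, the apical sodium-proton exchanger through which proximal cells secrete most of their acid (ENSMUSG00000036123, chromosome 13, 74121457 to 74169442). Its transcription has been tied to the CLOCK and BMAL1 pair through E-boxes in rodent kidney. The E-box of the sequence shown above lies in this gene's window, and its part in the values below was not tested. PBS-control libraries had 178 to 229 CPM (median 203) and PBS-cKOt libraries 99.6 to 168 (median 140), with no overlap. The mean fell from 205 ± 14.1 to 140 ± 18.7 CPM (−0.55 ± 0.08, adjusted p = 1.21e-06). In STZ mice it fell from 167 ± 25.8 to 124 ± 12.3 CPM (−0.42 ± 0.08, adjusted p = 0.000114). STZ-control ran from 124 to 217 CPM and STZ-cKOt from 105 to 142. The groups overlapped through the library labelled STZ-control 2 alone, since the other 8 control libraries began at 143 CPM. STZ lowered Slc9a3 in control mice (−0.30 ± 0.08, adjusted p = 0.0102), and in cKOt mice the difference was −0.17 (interval −0.33 to −0.01, adjusted p = 0.17). The interaction was 0.13 (adjusted p = 0.586). Markers of the first 2 proximal segments did not move as one. Of the 4, Slc22a8 (−0.94 in PBS mice and −1.20 in STZ mice) and Slc13a3 (−0.49 and −0.58) fell in both knockout comparisons. Slc5a2 (0.16 and 0.18) and Slc5a12 (0.14 and 0.64) had higher means in cKOt in both and were not called. The summed level of the 4, which takes in both the falls and these higher means, had a median of 1820 CPM in PBS-control (1630 to 2030) and 1480 in PBS-cKOt (1110 to 1750), and with STZ 1530 in controls (1320 to 1780) and 1220 in cKOt mice (945 to 1560). Their part in the result was not tested.

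Slc4a4 encodes NBCe1, through which bicarbonate leaves the proximal cell toward the blood (ENSMUSG00000060961, chromosome 5, 88886818 to 89239653). None of its pairwise differences was called. PBS-control libraries ran from 1030 to 1650 CPM (mean 1300 ± 209) and PBS-cKOt libraries from 704 to 1450 (1110 ± 285). With STZ, controls ran from 460 to 1340 CPM (1040 ± 327) and cKOt mice from 784 to 1630 (1340 ± 255). All 4 ranges overlapped. The largest difference, 0.37 between STZ-cKOt and STZ-control, had an interval of 0.03 to 0.71 (adjusted p = 0.125). The low values of 2 groups were those of the 4 libraries apart: 460 and 519 CPM in STZ-control 7 and 8, where the rest of that group had 1020 to 1340, and 704 and 811 in PBS-cKOt 1 and 3, where 7 others had 828 to 1450. Without these 4 libraries the 0.37 became 0.17. Slc4a4 has the longest exon sequence of the 9 genes (10815 bases), and in these 4 libraries the slope of log2 CPM on log2 exon length was lowest, from −0.17 to −0.0753, with the next library at −0.0605. The part of this in the Slc4a4 values was not tested.

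Car4 encodes carbonic anhydrase IV, held on the outside of the apical membrane, where it speeds the turnover of bicarbonate (ENSMUSG00000000805, chromosome 11, 84957786 to 84966044). Its CPM ran from 151 to 237 in PBS-control (median 183) and 178 to 261 in PBS-cKOt (median 216). With STZ it ran from 107 to 232 in controls (median 167) and 123 to 188 in cKOt mice (median 145). STZ lowered it in cKOt mice, from 223 ± 25.8 to 150 ± 22.5 CPM (−0.57 ± 0.10, adjusted p = 0.000218). These groups overlapped only between 178 and 188 CPM. In control mice the difference was −0.13 (interval −0.34 to 0.07, adjusted p = 0.415). The interaction was −0.43 ± 0.14 (unadjusted p = 0.0049, adjusted p = 0.332) and −0.26 without the 4 libraries apart. Neither knockout difference was called: 0.26 in PBS mice (adjusted p = 0.0583) and −0.17 in STZ mice (adjusted p = 0.262). Without the 4 libraries apart these were 0.21 and −0.05, and the STZ difference in control mice was −0.24 (adjusted p = 0.121).

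Rhbg encodes a basolateral ammonia transporter of the distal nephron and collecting duct (ENSMUSG00000104445, chromosome 3, 88242874 to 88254709). It was by far the least abundant of the 9 genes, with 41 to 148 reads per library. Of its exon bases 61.4% are shared with Gm38392, a gene model on the same strand that itself had 0 to 2 reads, so reads in the shared part may have gone to neither gene. Its level is therefore uncertain. Its CPM ran from 2.41 to 5.09 in PBS-control (median 3.61) and 3.83 to 8.12 in PBS-cKOt (median 5.13), with overlap. Rhbg was higher in PBS-cKOt (5.21 ± 1.27 CPM) than in PBS-control (3.63 ± 0.831 CPM), by 0.52 ± 0.15 (adjusted p = 0.0114). In STZ mice the values were 4.16 ± 0.572 and 4.48 ± 1.44 CPM (−0.09, adjusted p = 0.728). Its paralog Rhcg, an apical and basolateral ammonia transporter of the same cells, stood at 83.7 ± 9.44 CPM in PBS-control and 98.1 ± 11.9 in PBS-cKOt (0.23, adjusted p = 0.0809). STZ lowered Rhcg in cKOt mice to 80.1 ± 11.9 CPM (−0.29 ± 0.10, adjusted p = 0.0425). That call was lost without the 4 libraries apart. Intercalated cell markers, whose cells hold both transporters, had 3 of 6 called higher and 0 called lower in PBS-cKOt. Among them Slc4a1 had a lower mean there (−0.32, not called). Their summed level had a median of 334 CPM in PBS-cKOt and 299 in PBS-control. In STZ-cKOt against STZ-control 2 of these markers were higher and 1 lower (Slc4a1, −0.46), with summed medians of 333 and 319 CPM. Their part in the result was not tested.

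**Figure D3:**
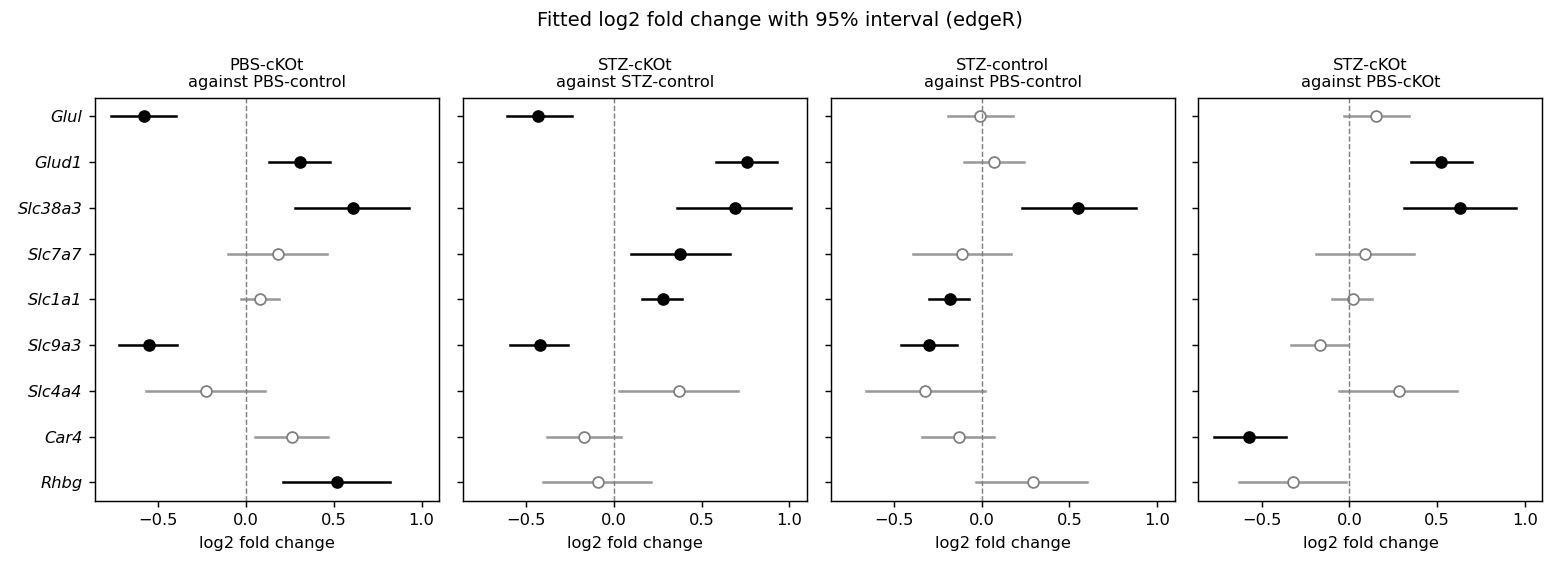
Fitted log2 fold change (x axis) of each gene (y axis) in the 4 pairwise comparisons, with 95% intervals. Filled points passed an adjusted p of 0.05 over all 15637 genes. Slc38a3 is filled and above 0 in all 4 panels, Glul and Slc9a3 are below 0 in both knockout panels, and Car4 is filled only for STZ in cKOt mice (−0.57).

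STZ moved fewer of these genes than the knockout comparisons did, and this difference in number was not tested. In control mice 3 of the 9 were called against 12.3% of all genes: Slc38a3 rose (6.34% of all genes were called higher), and Slc1a1 and Slc9a3 fell (5.93%). The median over the 9 was −0.11 (all genes 0.005). In cKOt mice 3 were called against 11.6% of all genes: Glud1 and Slc38a3 rose (6% of all genes) and Car4 fell (5.63%), with a median of 0.09 (all genes −0.001). The pairwise comparisons share groups, so their values are not independent. Over the same contrasts, proximal tubule markers of all segments had 3 of 5 lower and 0 higher under STZ in each genotype, and the median of their summed level went from 9820 to 7370 CPM with STZ in control mice and from 9250 to 7690 in cKOt mice. Their part in the falls was not tested.

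The interaction asks whether the STZ effect differed between genotypes, taken as the effect in cKOt minus that in control mice. Of the 9 genes 0 were called by edgeR, DESeq2 or limma voom, where edgeR called 7 genes in all, or 0.0448% of those tested. At an unadjusted p under 0.05 there were 5 of the 9, and 12.4% of all genes. These 5 were Glud1 (0.45), Slc1a1 (0.20) and Slc4a4 (0.60) with higher values, and Car4 (−0.43) and Rhbg (−0.61) with lower ones. Without the 4 libraries apart Slc4a4 came to 0.26, Car4 to −0.26, Rhbg to −0.30 and Slc1a1 to 0.12, while Glud1 came to 0.43.

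Levels can be set side by side only per length. In PBS-control, CPM per kilobase of exon was 157 ± 18.4 for Glul, 126 ± 10.3 for Glud1, 120 ± 19.4 for Slc4a4, 94.4 ± 12.4 for Car4, 48.2 ± 3.67 for Slc1a1, 39.1 ± 4.89 for Slc7a7, 37.3 ± 2.57 for Slc9a3, 10 ± 2.64 for Slc38a3 and 1.88 ± 0.429 for Rhbg. Glud1 and Slc4a4, and Slc7a7 and Slc9a3, are neighbours that lay within 1 SD of each other. In STZ-cKOt the order was led by Glud1, at 224 ± 44.1, before Slc4a4 (124 ± 23.6) and Glul (116 ± 19.8), which were within 1 SD of each other. Slc38a3 had 23.7 ± 5.04 there and had passed Slc9a3, at 22.6 ± 2.24, although these too were within 1 SD. Pck1 stood at 593 ± 151 CPM per kilobase in PBS-control.

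Libraries of the same group also differed, and some of the 9 genes differed together. Over the 36 pairs of genes, log2 CPM after removal of the group means was correlated across 36 libraries (permutation test within groups, 100000 resamples, 2-sided, adjusted over the 36 pairs). A total of 10 pairs passed for both Pearson's r and Spearman's rho, 6 positive and 4 negative. Slc4a4 rose and fell with Slc7a7 (r = 0.67, rho = 0.66, adjusted permutation p = 0.00036 and 0.00072) and against Rhbg (r = −0.72, rho = −0.60, adjusted p = 0.00036 and 0.00234) and Car4 (r = −0.68, rho = −0.66, adjusted p = 6e-04 and 0.00108), by the same permutation test. Glud1 went with Slc38a3 (r = 0.59, rho = 0.59, adjusted permutation p = 0.00108 and 0.00234), at 0.36 and 0.53 within the PBS controls and PBS knockouts and at 0.90 and 0.62 within the STZ controls and STZ knockouts. It also went with Slc1a1 (r = 0.47, rho = 0.44, adjusted permutation p = 0.0183 and 0.035). Without the 2 libraries farthest from the median of the first gene the r of these 5 pairs, in that order, was 0.66, −0.61, −0.59, 0.58 and 0.50. Without the 4 libraries apart it was 0.74, −0.48, −0.52, 0.55 and 0.47. Of the 36 pairs 5 then passed, which need not be the 5 named here. Glul and Slc7a7, also among the 10 pairs (r = 0.51), had r = 0.58 without the 4 libraries. Slc4a4 has the longest exon sequence of the 9 genes (10815 bases). Rhbg and Car4 have the shortest (1937 and 1966 bases), and Slc7a7 has 3315 bases. The part of exon length in these correlations was not tested. Glul and Glud1, whose group means moved in opposite directions in the knockout, had r = 0.29 within groups (rho = 0.17, adjusted permutation p = 0.231 and 0.492).

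**Figure D4:**
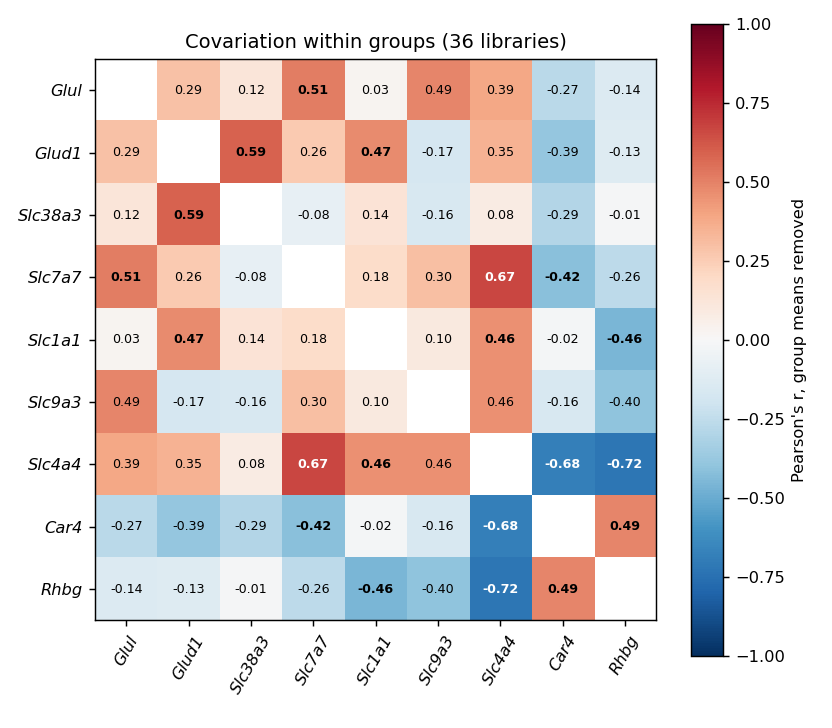
Pearson's r of log2 CPM between the 9 genes over 36 libraries after removal of the group means (colour scale from −1 to 1). Bold numbers mark the 10 pairs that passed for r and rho. Slc4a4 has the strongest values, at −0.72 with Rhbg, −0.68 with Car4 and 0.67 with Slc7a7.

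The genes whose log2 CPM ran most like each of the 9 over the 36 libraries were also listed, as a description that includes the group differences. Slc7a7 was nearest to Slc3a2 (r = 0.91, or 0.92 with group means removed), which encodes 4F2hc, the heavy chain that pairs with y+LAT1 to form the transporter, and next to the peptidase gene Xpnpep2 (0.88). Slc9a3 was nearest to the potassium-chloride cotransporter gene Slc12a7 (0.93, or 0.79 with group means removed) and to Plekha6 (0.92). Glul was nearest to the carnitine transporter gene Slc22a5 (0.89, or 0.64) and to Dnajc6 (0.86). Glud1 was nearest to Hacl1, a peroxisomal lyase gene (0.92, or 0.70), and Apmap (0.91), and Slc38a3 to Mab21l3 (0.86, or 0.63) and Abca17 (0.85). Car4 was nearest to Haao (0.89, or 0.83) and Qprt (0.88), both of the pathway from tryptophan to NAD. Slc4a4 was nearest to Gpalpp1 and Cnot1 (0.95 each), Slc1a1 to Cdcp1 and Elp4 (0.83 each) and Rhbg to Pafah1b3 (0.88) and the ribosomal protein gene Rpl7a (0.85).

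Around these 9 genes, 4 wider lists of the pathway were read. In the list of glutamine, glutamate and amino acid catabolism, 19 of 22 genes were tested. Of these, 3 rose and 6 fell in PBS-cKOt (47.4% called, against 23.4% of all genes; median −0.02). In STZ-cKOt 5 rose and 3 fell (42.1% against 19.6%; median 0.01). Amt, which encodes the ammonia-releasing subunit of the glycine cleavage system, rose by 0.78 ± 0.07 in PBS mice (73.6 to 126 CPM, adjusted p = 9.04e-11) and 0.94 ± 0.07 in STZ mice (adjusted p = 8.62e-13). Both times the groups did not overlap. Aldh4a1, of proline and glutamate breakdown, rose by 0.31 in PBS mice, and Prodh2, of hydroxyproline breakdown, in both (0.42 and 0.44). The arginine-making genes Ass1 (−0.48 and −0.51 in PBS and STZ mice) and Asl (−0.46 and −0.31) fell in both. Ggt1, which encodes gamma-glutamyl transferase of the brush border, fell by 0.56 in STZ mice (−0.56 ± 0.08, adjusted p = 2.32e-06) and by 0.29 in PBS mice (−0.29). The other falls in PBS mice were Ogdh (−0.24), Got1 (−0.19) and Gpt2 (−0.22), and Pck1 and the ornithine aminotransferase gene Oat (0.27) also rose in STZ mice. STZ in control mice changed 2 of the 19 (10.5%, against 12.3% of all genes), the asparagine synthetase gene Asns (0.47) and the proline-synthesis gene Aldh18a1 (0.49), both upward. STZ in cKOt mice changed 4 (21.1% against 11.6%): it raised the transaminase genes Got1 (0.18) and Gpt2 (0.23) and lowered Ggt1 (−0.41) and the D-amino acid oxidase gene Dao (−0.25).

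Among amino acid carriers 19 of 20 were tested, with 3 higher and 2 lower in PBS-cKOt, a share of 26.3% that is near the 23.4% of all genes (median −0.04). In STZ-cKOt 5 were higher and 2 lower (36.8% against 19.6%; median 0.02). Slc25a22, a mitochondrial glutamate carrier gene, rose from 19 to 37.9 CPM in PBS mice (0.99 ± 0.12, adjusted p = 1.2e-08) and rose by 0.52 ± 0.12 in STZ mice (adjusted p = 0.000875). STZ lowered it in cKOt mice (−0.44). Cltrn, whose product collectrin brings neutral amino acid carriers to the brush border, rose by 0.65 ± 0.08 and 0.77 ± 0.08 (adjusted p = 1.48e-08 and 2.77e-10), with no overlap in either, and Slc6a18, such a carrier, by 0.51 and 0.30. Slc7a8 (0.55) and Slc25a12 (0.27) also rose in STZ mice. The mitochondrial aspartate and glutamate exchanger gene Slc25a13 fell by 0.33 in PBS mice (−0.33), as did Slc6a19 (−0.58), which encodes the main neutral amino acid carrier of the brush border, and Slc1a5 (−0.30) and Slc7a5 (−0.46) were lower in STZ-cKOt. STZ in control mice raised Slc7a5 (0.39) and lowered Slc6a20b (−0.22), Cltrn (−0.30), Slc25a13 (−0.26) and Slc1a4 (−0.27). These are 5 calls (26.3%, against 12.3% of all genes), and without the 4 libraries apart the list had 2. In cKOt mice, with 4 calls (21.1% against 11.6%), it raised Slc38a2 (0.35), a further glutamine carrier gene, and lowered Slc6a20b (−0.28) and Slc1a4 (−0.27). Without the 4 libraries apart the rise of Slc38a2 was no longer called, and 3 genes were called lower.

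The list of proximal acid secretion and bicarbonate reclamation had 13 of 23 tested genes lower and 1 higher in PBS-cKOt (median −0.25), where 12.5% of all genes were lower and 10.9% higher. In STZ-cKOt 5 were lower and 2 higher (median −0.06), where 10.1% of all genes were lower and 9.52% higher. Without the 4 libraries apart, 11 were lower and 2 higher in PBS-cKOt (median −0.23). In STZ-cKOt 8 were then lower and 2 higher (median −0.10). The difference between these counts was not tested, and 0 of the 23 had a called interaction. The sodium pump subunit gene Atp1b1 (−0.35 ± 0.05, adjusted p = 1.14e-06), the scaffold gene Pdzk1 (−0.39 ± 0.05, adjusted p = 3.32e-07) and the dicarboxylate carrier gene Slc13a3 (−0.49 ± 0.08, adjusted p = 2.08e-05) were among the falls in PBS mice, as were Car14 (−0.65), a membrane-bound carbonic anhydrase gene, and the potassium channel genes Kcnk5 (−0.58), Kcnj15 (−0.41) and Kcnj16 (−0.38). Slc13a3 (−0.58), Pdzk1 (−0.25), Slc26a1 (−0.25), Kcnk5 (−0.74) and Slc9a3r1 (−0.39), which encodes the NHERF1 scaffold of NHE3, fell in STZ mice. The largest rise was Car5b, which encodes a mitochondrial carbonic anhydrase. It went from 77.8 to 196 CPM in PBS mice (1.33 ± 0.06, adjusted p = 2.92e-20) and from 63.6 to 183 in STZ mice (1.53 ± 0.06, adjusted p = 8.91e-22), with no overlap in either. The cytosolic carbonic anhydrase gene Car2 was called in STZ mice (0.43 ± 0.07, adjusted p = 2.09e-05) but not in PBS mice (0.06), and its interaction was not called (adjusted p = 0.228). STZ in control mice lowered 7 of the 23 and raised 0 (30.4% called, against 12.3% of all genes), among them Car5b (−0.29), Pdzk1 (−0.24), Car12 (−0.28) and Kcnj15 (−0.32). Without the 4 libraries apart it lowered 3. In cKOt mice STZ changed 7 (30.4% against 11.6%). It raised 4 (Car2 by 0.52, the anion exchanger gene Slc26a6 by 0.65, Car14 by 0.43 and Atp1b1 by 0.15) and lowered 3 (Slc9a8, −0.48, Slc9a3r1, −0.28, and Slc13a3, −0.27).

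In the list of distal ammonia transport and acid sensing 15 of 17 genes were tested, with 1 higher and 2 lower in PBS-cKOt and 1 and 1 in STZ-cKOt. These shares, 20% and 13.3%, are below the 23.4% and 19.6% of all genes. Without the library labelled STZ-control 2, or without the 4 libraries apart, 4 of the 15 were called in PBS-cKOt. Without the 4 libraries apart 3 were called in STZ-cKOt. With all 36 libraries the rise was Sgk1, the kinase gene induced by aldosterone and glucocorticoids, at 0.86 ± 0.15 (adjusted p = 3.96e-05) and 0.91 ± 0.15 (adjusted p = 1.57e-05). STZ also raised it, by 0.64 in control mice and 0.70 in cKOt mice. The proton-sensing receptor gene Gpr65 was lower in both knockout comparisons (−0.49 and −0.47) at under 2 CPM, and the glucocorticoid receptor gene Nr3c1 in PBS mice (−0.36). The acid-sensing receptor gene Gpr4 rose with STZ in both genotypes (0.37 and 0.28). Slc9a4 (0.44) rose and Nr3c1 (−0.32) fell with STZ in control mice, where 4 genes were called (26.7%, against 12.3% of all genes) and 2 without the 4 libraries apart.

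**Figure D5:**
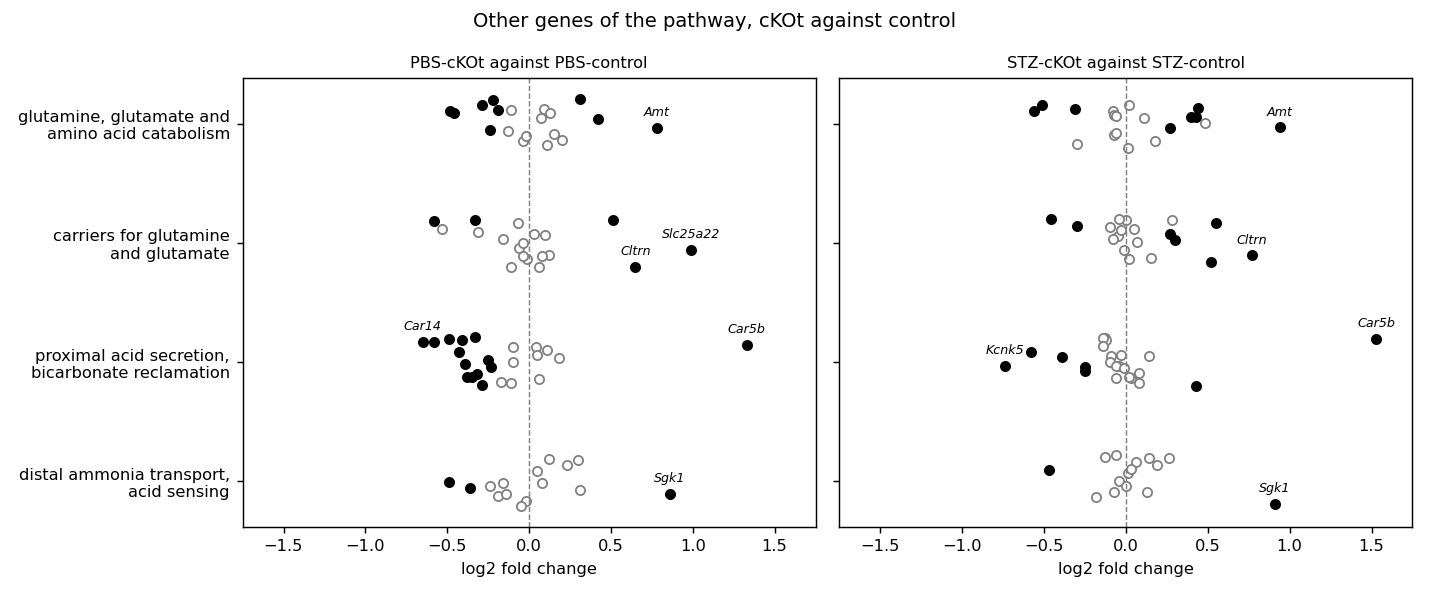
Log2 fold change (x axis) of the tested genes in the 4 wider lists (y axis) between cKOt and control, in PBS mice (left) and STZ mice (right). Filled points passed an adjusted p of 0.05, and those at 0.6 or beyond are named. Car5b stands farthest right in both panels, at 1.33 and 1.53, and most filled points of the proximal acid list lie left of 0 in PBS mice.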

How the data were processed

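Messenger RNA of 36 whole kidneys was sequenced from TruSeq Stranded mRNA libraries (500 ng of total RNA each). The deposited files hold the authors' raw read counts per Ensembl gene. Adapter trimming by cutadapt 1.8, alignment by STAR 2.5.3a, counting by HTSeq 0.9.1 and the build GRCm38 are named, without their settings, in the submitters' processing notes. Reads with more than 1 alignment (30.9% to 42.8%) went to no gene, and entries for unassigned reads were left out of library sizes. Coordinates and exon lengths are from GENCODE M21 (GRCm38), promoter windows from RefSeq (GRCm38.p6).

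All genes that passed filterByExpr were fitted in edgeR 4.0.16 (R 4.3.3) with TMM scaling, 1 mean per group over 36 libraries (32 residual degrees of freedom) and quasi-likelihood F tests. The method was tested on simulated data. SEs come from the F statistic. Groups came from the labels, which number the libraries of a group but name no animals, so p-values measure the spread between these libraries. Alternatives used DESeq2 1.42.0, limma 3.58.1, other filters and scalings, a replicate block and fewer libraries.

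The 9 genes and the wider lists were chosen with earlier results of these data known. These 9, Arntl, Pck1 and Rhcg are named whatever their values, as are the 2 genes most like each of the 9. Each wider list gives up to 4 genes per comparison, those called with the smallest adjusted p. Ciart and further list genes were named after their values were seen. List counts without doubted libraries were added after seeing the data. One further gene planned for naming is not reported here.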

Additional observations from a re-analysis of the deposited data

Results flagged for a closer look

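In 2 of 48 sets of 9 libraries, 1 library stood farther from its neighbour than Dixon's 95% limit allows. Chance alone would mark about 1 set in 20. Glul was counted at 537 CPM in STZ-cKOt 9, where the next highest library of the group had 427. That library also had the highest Glud1 (1280 CPM), Slc38a3 (165 CPM), Slc7a7 (195 CPM), Slc4a4 (1630 CPM) and Pck1 (3320 CPM) and the lowest Car4 (123 CPM) of its group. Rhbg was counted at 8.12 CPM in PBS-cKOt 1, where the next highest had 5.95. This is 1 of the 4 libraries apart on the second principal component, and without those 4 the Rhbg difference in PBS mice was 0.41 (edgeR, adjusted p = 0.0178) in place of 0.52.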

How the results depend on the processing

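Of the single-gene values recomputed under each alternative, 416 kept their direction and side of the threshold, 9 were weaker, 6 stronger and 10 changed sign. The changes of sign were all in differences that were not called. Without the 4 libraries apart, Rhbg between STZ-cKOt and STZ-control became 0.11, Slc1a1 for STZ in cKOt mice −0.02, and for STZ in control mice Glul became 0.04 and Slc7a7 0.00. With limma voom the first 3 were 0.07, −0.02 and 0.01. Glul for STZ in control mice was 0.00 without mitochondrially encoded genes, 0.00 without a filter on low counts and 0.04 without STZ-control replicate 2. Over all genes, 15 interactions were called by limma voom and 20 by DESeq2, against 7. Correlated pairs fell from 10 to 5 without the 4 libraries apart. The causes were not tested.

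The labels do not say that the replicate numbers pair the samples, and pairing was not tested. Same-numbered samples had a mean correlation of 0.0284 (−0.247 to 0.396) and differently numbered ones −0.00264. Of the 36 libraries 7 correlated best with their own number. With the replicate block 5, 5, 3 and 3 of the 9 genes were called in the 4 pairwise comparisons (PBS knockout, STZ knockout, STZ in control, STZ in cKOt) and 0 for the interaction, with 3738, 3128, 2039, 1914 and 5 genes in all. The gene lost was Slc7a7 in STZ mice (0.37, adjusted p = 0.0516, edgeR). Over all alternatives the number called ran from 5 to 7, 5 to 6, 2 to 3 and 3 to 4. Calls gained were Car4 in PBS mice by limma voom (adjusted p = 0.0155), by DESeq2 (0.0463) and in edgeR with only these groups (0.0153), Slc1a1 in PBS mice by limma voom (0.0444), and Slc9a3 for STZ in cKOt mice by limma voom (−0.21, 0.0379) and without the 4 libraries apart (−0.23, 0.0472). Depth limits Rhbg most, at 41 to 148 reads.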
